A study of Mus musculus with 3 samples.

Results

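Heat shock chaperones are the proteins that hold, fold and refold other proteins. The 10 genes described here were taken by symbol from the deposited gene tables and were all found there, as 10 of 32285 genes. They are Hspa1a and Hspa1b, which encode the stress-inducible HSP70, Hspa8, which encodes the constitutive HSC70, Hsp90aa1 and Hsp90ab1, the cytosolic HSP90 pair, Hspd1 and Hspe1, the mitochondrial chaperonin HSP60 and its cochaperonin HSP10, Hsph1, the HSP110 nucleotide exchange factor, and Dnajb1 and Dnaja1, the HSP40 cochaperones with a J domain.

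Single-cell RNA-seq was carried out on bone marrow of femur and tibia of C57BL/6J mice, enriched on a Ficoll gradient, with 1 library for each of 3 groups. MI-E is labelled as MI with EMPA, an abbreviation the labels do not spell out. MI is myocardial infarction by ligation of the LAD, the left anterior descending coronary artery, under isoflurane, and Sham is the sham-operated group. The protocol given with the Sham library describes the same ligation, and the age of the mice, the time after surgery and the number of mice behind a library are not given in the sources used here. With 1 library per group there is no replicate check: group and library cannot be told apart, no difference was tested, and every interval below is an exact 95% interval for counting error only. UMIs of 1 cell are not independent, so these intervals are narrower than the spread between mice would be.

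HSP70 binds exposed hydrophobic stretches of its clients in a cycle of ATP hydrolysis. J-domain proteins start that cycle and HSP110 ends it, after which some clients pass on to HSP90, while the HSP60 and HSP10 chamber folds proteins imported into mitochondria. Under heat or other proteotoxic stress, heat shock factor 1 forms trimers on inverted repeats of the unit GAA in promoters and induces a part of these genes, Hspa1a and Hspa1b above all, while Hspa8 and Hsp90ab1 are transcribed in unstressed cells. The inducible genes, together with immediate early genes, are also known to respond to the handling of tissue and cells before lysis.

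The promoters of the inducible pair are shown because the largest differences below are those of Hspa1a and Hspa1b and because both genes carry almost the same control region. Each line gives the 250 bases before the annotated start, from RefSeq on GRCm38.p6, with the sequence GAAGATTC, a match to GAANNTTC, in capitals. The stretches lie on the reverse strand at chr17:34972157-34972406 for Hspa1a and chr17:34959239-34959488 for Hspa1b.
Hspa1a: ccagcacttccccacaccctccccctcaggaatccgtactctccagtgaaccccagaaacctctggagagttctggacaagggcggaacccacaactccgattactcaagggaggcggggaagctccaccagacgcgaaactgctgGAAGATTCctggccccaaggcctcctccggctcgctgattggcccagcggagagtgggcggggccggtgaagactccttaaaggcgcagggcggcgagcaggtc
Hspa1b: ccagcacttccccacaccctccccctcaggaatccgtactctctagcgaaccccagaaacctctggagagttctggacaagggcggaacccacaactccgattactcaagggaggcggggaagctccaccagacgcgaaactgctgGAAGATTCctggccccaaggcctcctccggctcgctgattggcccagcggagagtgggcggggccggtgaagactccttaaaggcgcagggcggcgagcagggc
Over this stretch 247 of 250 bases were the same (98.8%), and the capital match began 104 bases before the start in both.

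The coding sequences of the pair were as close, with 1915 bases of 1926 in common (99.43%). The last 500 bases of the transcripts, near which 3′ reads fall, were not: none of the 411 windows of 90 bases of one transcript occurred in the other. Over whole transcripts, 1419 of 2878 windows of Hspa1a (49.31%) were also in Hspa1b. Reads from the shared coding part could not be assigned to 1 copy, so the pair was also described as the sum of the UMIs of both genes.

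A stretch near the starts of Hspe1 and Hspd1, which lie on opposite strands, is shown because it holds a longer run of the same units. It is given on the forward strand at chr1:55088055-55088080, with the run in capitals. That is from 93 to 68 bases before the Hspe1 start of the promoter window, which differs from the gene start given further below. The run begins 144 bases before the start of the second of the Hspd1 windows. It lies inside Hspd1 as annotated from its first start, and the window at that first start held none of these motifs.
Hspe1: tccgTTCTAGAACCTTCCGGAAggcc
Promoter windows of 300 bases were found for 7 of 10 members, and both strands were searched. GAANNTTC occurred in windows of 6 members, against 9.04% of all 27025 genes with windows (7.86% of 32851 windows). TTCNNGAA occurred in 3 members, against 9.60% of genes (8.52% of windows), and a run of 3 alternating GAA and TTC units, each 2 bases apart, which contains both shorter motifs, in 3 members, against 0.662% of genes (0.603% of windows). Hspe1 and Hspd1 were both counted through the same stretch. In Hsph1 the run began 37 or 16 bases after the start, depending on the window. Hspa1a and Hspa1b have almost the same promoter, so the members counted are not independent of each other. Dnajb1 held none of these motifs in its windows. A match of letters is a description and not a measured binding site.

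After filtering and removal of likely doublets, 19662 cells were kept in MI-E, 20459 in MI and 21273 in Sham. The median depth per cell was 2585.5 UMIs in MI-E, 3113 in MI and 2132 in Sham. Cells were grouped by clusters and marker genes into classes whose names were rebuilt here, so each is called "-like", and 14 classes with at least 200 cells in every library were compared. Not every name is equally firm. The 10 leading genes of the myeloid progenitor-like cluster c9 held 5 markers of that class and 5 of neutrophil precursors. Those of the mature naive B-like cluster b6 held 0 markers of its class. Levels are CPM, the UMIs of a gene per 1000000 UMIs of the class in that library. Between 115 and 122 cell barcodes were shared by a pair of libraries, at most 0.621% of the cells of either. Some clusters belonged mostly to 1 library: cluster c7 of the non-dividing monocyte-like class was almost all Sham, and mature naive B-like cells fell mostly in cluster b1 in Sham and in b0 in MI and MI-E. The median of all genes with at least 20 CPM lay within 0.11 on the log2 scale of 0 in every class between MI and Sham apart from haemoglobin-rich erythroid-like cells, where it was 0.44, a shift that any ratio in that class has to be read against. For MI-E over MI that median was above 0 in every compared class, from 0.03 to 0.14, so a level higher in MI-E was the more common direction over all genes.

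The inducible pair was lower in both infarct libraries than in Sham in each of the 14 classes. The interval left out a ratio of 1 in 10 of these classes for MI and in 10 for MI-E. Under TMM scaling the ratio to Sham stayed below 1 in the 10 classes of MI-E and 11 classes of MI that had enough UMIs for one. In myeloid progenitor-like cells, Hspa1a and Hspa1b together were at 1.63 CPM in MI-E (30 UMIs), 1.54 CPM in MI (32 UMIs) and 34.8 CPM in Sham (287 UMIs, interval 30.9 to 39.1). MI-E and MI lay at 1 low level and Sham far above both, with no overlap of the intervals. The level in MI was 22.6-fold lower than in Sham (interval 15.6 to 33.6), and that in MI-E 21.4-fold lower than in Sham (14.6 to 32.3). Hspa1a is ENSMUSG00000091971 at chr17:34969190-34972156 and Hspa1b ENSMUSG00000090877 at chr17:34956436-34959238, both on the reverse strand of mm10. Each copy by itself followed the sum: Hspa1a was at 0.543 CPM in MI-E, 0.578 in MI and 16.2 in Sham, and Hspa1b at 1.09 CPM in MI-E, 0.963 in MI and 18.5 in Sham.

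**Figure D1:**
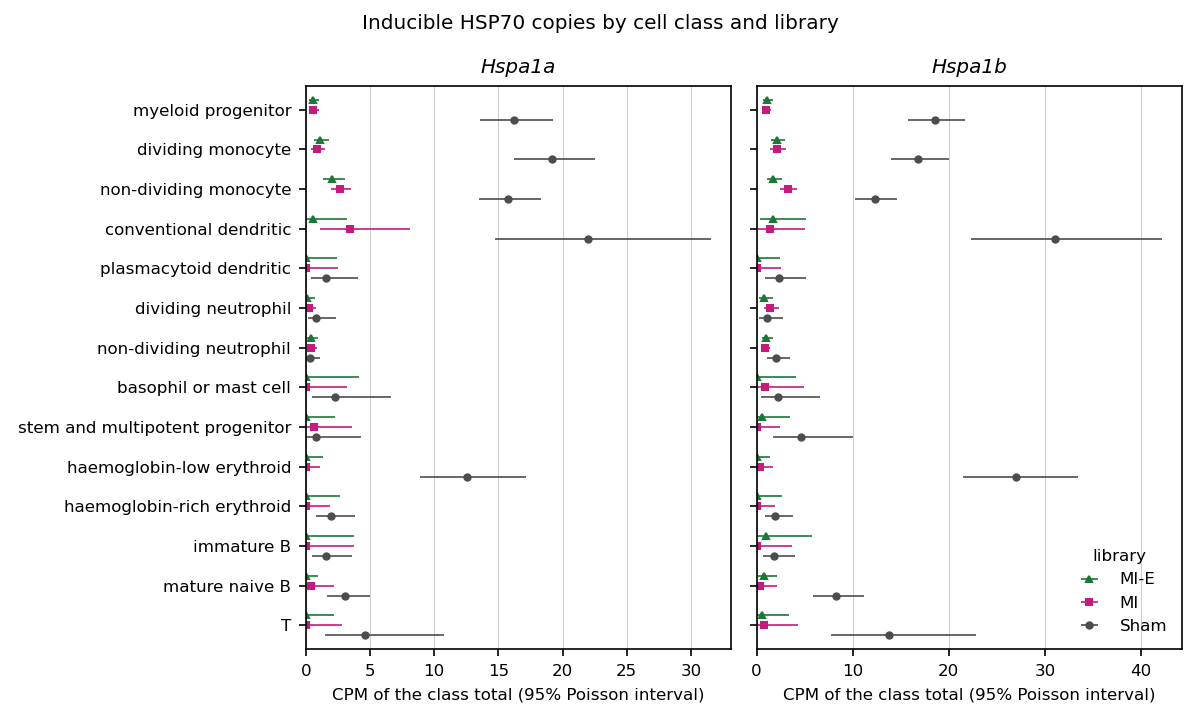
Levels of Hspa1a (left) and Hspa1b (right) as CPM of the class total in 14 cell classes, with MI-E as triangles, MI as squares and Sham as circles; bars are exact 95% Poisson intervals for counting error only. Sham lies apart to the right in myeloid progenitor-like, monocyte-like, conventional dendritic-like and haemoglobin-low erythroid-like cells, while in dividing neutrophil-like cells the intervals of the libraries overlap.

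The monocyte line gave the same picture at different sizes. In dividing monocyte-like cells the pair was at 3.26 CPM in MI-E, 2.94 in MI and 36.0 in Sham, 12.2-fold lower in MI than in Sham (8.70 to 17.7). In non-dividing monocyte-like cells it was at 3.77 CPM in MI-E, 5.89 in MI and 28.0 in Sham, a smaller gap of 4.76-fold between MI and Sham (3.78 to 6.03). This was also the class in which MI-E was lower than MI beyond counting error, by 1.56-fold (log2 ratio -0.65, interval -1.18 to -0.13). No cluster of that class held enough cells of both MI and Sham for a ratio within a cluster.

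Conventional dendritic-like cells had the highest Sham level of the compared classes. There the pair reached 2.33 CPM in MI-E (4 UMIs), 4.86 in MI (7 UMIs) and 53.0 in Sham (70 UMIs), so that MI was 10.9-fold lower than Sham (5.02 to 28.1). Haemoglobin-low erythroid-like cells, the early erythroid stage, had no UMI in MI-E, 1 UMI in MI (0.311 CPM) and 123 UMIs in Sham (39.5 CPM). Against the floor of 3 counts per library, MI-E was at least 36.0-fold lower than Sham, and the ratio for the single UMI in MI was 127-fold lower with an interval from 22.4 to 5064. The Sham UMIs there lay in 43 of 258 cells, which were deep, and thinning to equal depth left none, as given below. In lymphoid classes the counts were small: T-like cells had 1 UMI in MI-E, 1 in MI and 20 in Sham (18.4 CPM), and mature naive B-like cells had 3 UMIs in MI-E (0.743 CPM), 2 in MI (0.777 CPM) and 56 in Sham (11.3 CPM). The interval of MI against Sham was 3.80 to 985-fold lower in T-like cells and 3.83 to 123-fold lower in mature naive B-like cells. In cluster b0, where most MI cells of the second class fell, the pair was at 0.949 CPM in MI (2 UMIs in 2026 cells) and 15.9 CPM in Sham (5 UMIs in 248 cells), a log2 ratio of -4.06 with an interval from -7.46 to -1.45.

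The neutrophil line had the smallest gaps among the classes with more than 1 UMI in every library. Dividing neutrophil-like cells had 0.934 CPM in MI-E, 1.68 in MI and 1.87 in Sham, and the log2 ratio of MI to Sham was -0.15 with an interval from -1.48 to 1.35. In non-dividing neutrophil-like cells the levels were 1.42 CPM in MI-E, 1.28 in MI and 2.38 in Sham (log2 ratio of MI to Sham -0.89, interval -1.89 to 0.15). Both intervals hold 0, so no difference was detectable there at this depth. Sham was clustered apart from the infarct libraries in part of the non-dividing class, and within cluster c2, which had cells of all libraries, MI had 0.321 CPM against 2.25 CPM in Sham (log2 ratio -2.81, interval -4.99 to -0.91).

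The other 5 classes had no more than 16 UMIs of the pair in any library. Plasmacytoid dendritic-like and haemoglobin-rich erythroid-like cells had none in MI-E or MI, against 10 and 16 UMIs in Sham. Immature B-like cells had 1 UMI in MI-E, none in MI and 11 in Sham, and basophil or mast cell-like cells had none in MI-E, 1 in MI and 6 in Sham. Stem and multipotent progenitor-like cells had 1 UMI in MI-E, 1 in MI and 7 in Sham (8.33-fold lower in MI than in Sham, interval 1.07 to 375).

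Counted over classes, the pair was at least 1.5-fold lower in MI than in Sham in 12 of 14 classes, with a lower bound in place of the ratio where a library had no UMI. The pair had a mean of 20 CPM or more in 1 of these classes, so its counts are set beside genes of low level, treated in the same way: of all combinations of a class and a gene under 20 CPM with more than 3 UMIs in a library, 18.5% were at least 1.5-fold lower between these libraries (5.2% of those with at least 20 CPM). MI-E was at least 1.5-fold lower than Sham in 13 of 14 classes, where the share was 16.1% under 20 CPM and 4.16% from 20 CPM. Between MI-E and MI, 3 of the 6 classes with more than 3 UMIs in a library were at least 1.5-fold lower in MI-E, against 15.8% of combinations under 20 CPM and 2.59% of those from 20 CPM. These were non-dividing monocyte-like, conventional dendritic-like and dividing neutrophil-like cells, and only the first of these 3 had an interval that did not hold a ratio of 1. The pair of comparisons with Sham shares the Sham library, so the second is not a repeat of the first. Over all cells together the pair was at 2.01 CPM in MI-E, 2.45 in MI and 18.0 in Sham.

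The share of cells with a UMI of the pair followed the levels. In myeloid progenitor-like cells it was 2.67% in MI-E, 2.71% in MI and 20.4% in Sham (exact binomial interval 16.9 to 24.2%), and in dividing monocyte-like cells 3.33% in MI-E, 3.22% in MI and 16.7% in Sham. These shares depend on depth, and with each cell thinned to 1000 UMIs the share in myeloid progenitor-like cells was 0.107% in MI-E, 0.101% in MI and 2.85% in Sham (1.57 to 4.74%). The lowest share of a compared class in Sham was 0.573%, in immature B-like cells with a median of 1452 UMIs per cell, against a median of 15988 in Sham myeloid progenitor-like cells. After thinning that class was at 0.513% (0.235 to 0.972%), still below myeloid progenitor-like cells at equal depth. No class is known to lack the genes, so the background of free RNA was not measured for them. In haemoglobin-low erythroid-like cells the share was 16.7% in Sham and 0.361% in MI, but no Sham cell of 226 had a UMI after thinning, with an exact interval up to 1.62%. After thinning 1 MI cell of 254 had one (0.394%) and no MI-E cell of 203, so no excess in Sham was seen there at equal depth. The Sham cells with a UMI were the deep ones there, with a median of 24391 UMIs against 3631 in those without.

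The UMIs were spread over many cells. In Sham myeloid progenitor-like cells, the cell with the most held 20 of 287. Both copies tended to occur in the same cells: of 76 Sham myeloid progenitor-like cells with an Hspa1b UMI, 28 also had one of Hspa1a (36.8%), against 10.6% of all cells of the class. The same shares were 26.3% against 9.73% in Sham dividing monocyte-like cells and 31.6% against 6.59% in Sham haemoglobin-low erythroid-like cells. Deep cells are more likely to show both genes, so these shares are not free of depth.

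Cells that carried inducible HSP70 in Sham also differed in other members. In Sham myeloid progenitor-like cells, 100 cells had a UMI of the pair and 391 had none. Hspe1 was at 604 CPM in cells with a UMI and 410.4 CPM in cells without (log2 ratio 0.56), Hspd1 at 403 and 274 CPM (0.56), Hsp90ab1 at 2167 and 1564 CPM (0.47, interval 0.42 to 0.52), Hsp90aa1 at 1085 and 868 CPM (0.32) and Hspa8 at 1037 and 856 CPM (0.28). These 5 were higher in the cells with a UMI, with intervals above 0. How many of all genes were higher in those cells was not computed, so the count is not a result about chaperones. Dnajb1, another gene known as heat-inducible, was at 36.4 CPM in cells with a UMI and 36.3 CPM in cells without (log2 ratio 0.00, interval -0.40 to 0.39), and Dnaja1 was at 214 and 216 CPM. The cells with a UMI were deeper, with a median of 19276 UMIs against 15313, and Fos, an immediate early gene, was at 147 CPM in them against 85.7 CPM in the rest. The part of depth and of cell stage in these differences was not tested.

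In Sham dividing monocyte-like cells, Hsp90ab1 was at 1473 CPM in the 141 cells with a UMI of the pair and 1169 CPM in the 702 without (log2 ratio 0.33), and Hsph1 was lower, at 7.98 against 17.4 CPM (-1.13, interval -2.08 to -0.29). In Sham non-dividing monocyte-like cells, Hsp90aa1 was at 186 CPM with and 145 CPM without (0.36) and Dnaja1 at 131 and 102 CPM (0.36), while the intervals of Hspe1, Hspd1 and Dnajb1 held 0. Among the 98 MI cells of that class with a UMI, no member's interval lay apart from 0.

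**Figure D2:**
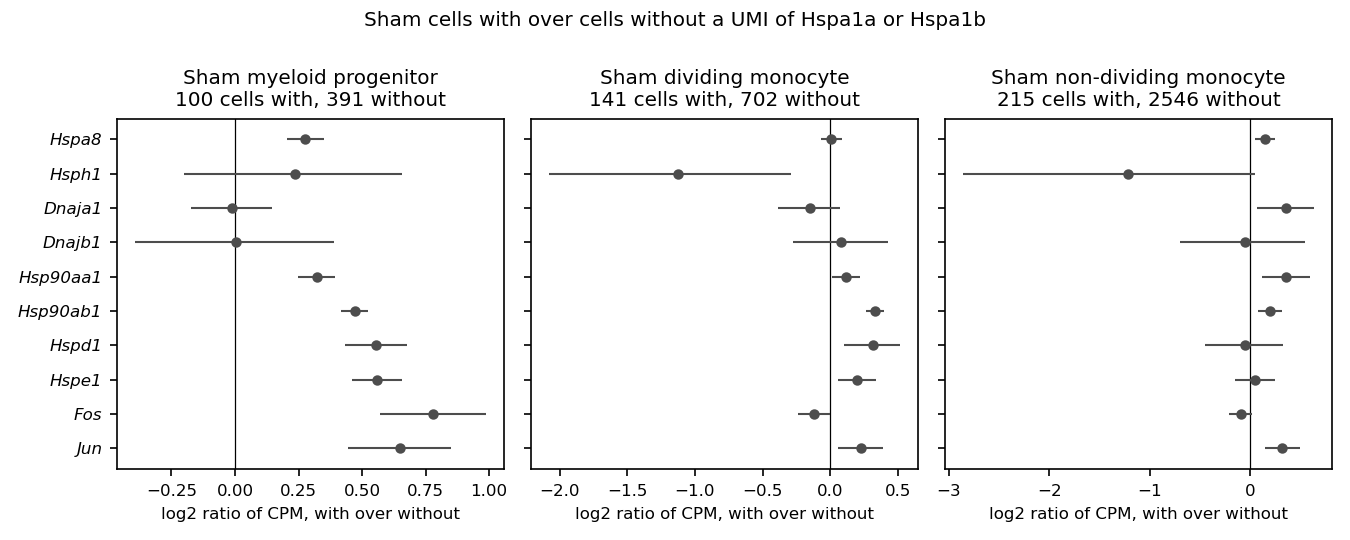
Log2 ratio of CPM in Sham cells with a UMI of Hspa1a or Hspa1b over Sham cells without one, for 8 chaperone genes and for Fos and Jun, in 3 classes with separate axes; bars are exact 95% intervals for counting error only. In myeloid progenitor-like cells Hspe1, Hspd1, both HSP90 genes and Hspa8 lie right of 0 and Dnajb1 and Dnaja1 on it.

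Genes known to respond to handling and temperature also set Sham apart. The 18 immediate early genes summed to 597 CPM in MI-E, 483 in MI and 904 in Sham in myeloid progenitor-like cells, and were lower than in Sham in 14 of 14 classes in MI-E and in 14 of 14 in MI. Over the classes their sum ranged from 295 to 4798 CPM in MI-E, from 243.6 to 4095 CPM in MI and from 323 to 6896 CPM in Sham. The 2 cold-inducible genes, Rbm3 and Cirbp, which encode RNA-binding proteins, went the other way, at 1132 CPM in MI-E, 1584 in MI and 514 in Sham in myeloid progenitor-like cells, and were higher than in Sham in 14 of 14 classes in MI-E and in MI. Hsf1, the gene of heat shock factor 1, was at 23.9 CPM in MI-E, 20.2 in MI and 20.8 in Sham in that class. Over the 14 classes Hsf1 was lower than in Sham in 12 in MI, and in MI-E lower in 6 and higher in 8. Bag3, a further gene read beside the members, had the opposite direction to the inducible pair in most classes. It was higher than in Sham in 13 of 14 classes in MI and in 11 of 14 in MI-E. Its levels ran from 0 to 22.4 CPM in MI-E, from 0.777 to 22.7 in MI and from 0.310 to 19.9 in Sham. These counts of classes for Hsf1 and Bag3 take no account of counting error, and the lowest levels rest on few UMIs. The share of mitochondrial UMIs had a median of 2.43% in MI-E, 1.80% in MI and 2.65% in Sham over the deposited barcodes. Their part in the difference in inducible HSP70 was not tested.

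Hspa8, the constitutive HSP70, did not share the pattern of its inducible relatives. In myeloid progenitor-like cells it was at 1262 CPM in MI-E, 1265 in MI and 900.2 in Sham, so both infarct libraries were above Sham (log2 ratio of MI to Sham 0.49, interval 0.45 to 0.53). In conventional dendritic-like cells it was at 1209.5 CPM in MI-E, 892 in MI and 1243 in Sham, where MI alone was low (-0.48, interval -0.58 to -0.37). Haemoglobin-rich erythroid-like cells had 262.5 CPM in MI-E, 300.7 in MI and 143.4 in Sham (1.07 for MI over Sham, against 0.44 for the median of all genes in that class). Hspa8 was also higher in MI than in Sham in dividing neutrophil-like cells, at 326 CPM in MI-E, 401.7 in MI and 240.8 in Sham (0.74). Over the 14 classes it was higher in MI than in Sham in 9, with 8 intervals apart from 0, and lower in 5, with 3 apart from 0. TMM scaling left these numbers of classes at 9 and 5.

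Both HSP90 genes split the classes in a similar way. Hsp90ab1, the constitutive isoform, was at 530.9 CPM in MI-E, 420.2 in MI and 678.4 in Sham in non-dividing monocyte-like cells, with MI the lowest (log2 ratio of MI to Sham -0.69, interval -0.74 to -0.64) and MI-E between (0.34 over MI, interval 0.29 to 0.39). Conventional dendritic-like cells had the same order, at 704 CPM in MI-E, 592.7 in MI and 929.8 in Sham. Myeloid progenitor-like cells had the opposite direction, at 2449 CPM in MI-E, 2442 in MI and 1712 in Sham (0.51 for MI over Sham, interval 0.49 to 0.54). Between MI and Sham, Hsp90ab1 was lower in 10 classes and higher in 4, and 11 and 3 under TMM scaling. Between MI-E and MI it was higher in MI-E in 12 of 14 classes, 11 of them with intervals above 0, and in 10 of 14 under TMM scaling. The intervals are read against 0 and not against the median of all genes, which was also above 0 in these classes. Haemoglobin-rich erythroid-like cells had the largest such difference, at 231 CPM in MI-E and 157 in MI (0.56, interval 0.33 to 0.79).

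Hsp90aa1, the inducible isoform, was lower in MI than in Sham in 11 of 14 classes and higher in 3, and 12 and 2 under TMM scaling. Basophil or mast cell-like cells were lowest relative to Sham, at 199 CPM in MI-E, 202 in MI and 322.5 in Sham (log2 ratio of MI to Sham -0.67, interval -0.91 to -0.44). Haemoglobin-low erythroid-like cells, where the gene had its highest level in every library, were at 1718 CPM in MI-E, 1482 in MI and 2124 in Sham (-0.52). Myeloid progenitor-like cells again went the other way, at 1231 CPM in MI-E, 1131 in MI and 921.6 in Sham (0.30, interval 0.26 to 0.33). In haemoglobin-rich erythroid-like cells the ratio of 0.37 turned to -0.10 under TMM scaling and to -0.07 with haemoglobin genes left out of the totals, so no direction can be given there.

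**Figure D3:**
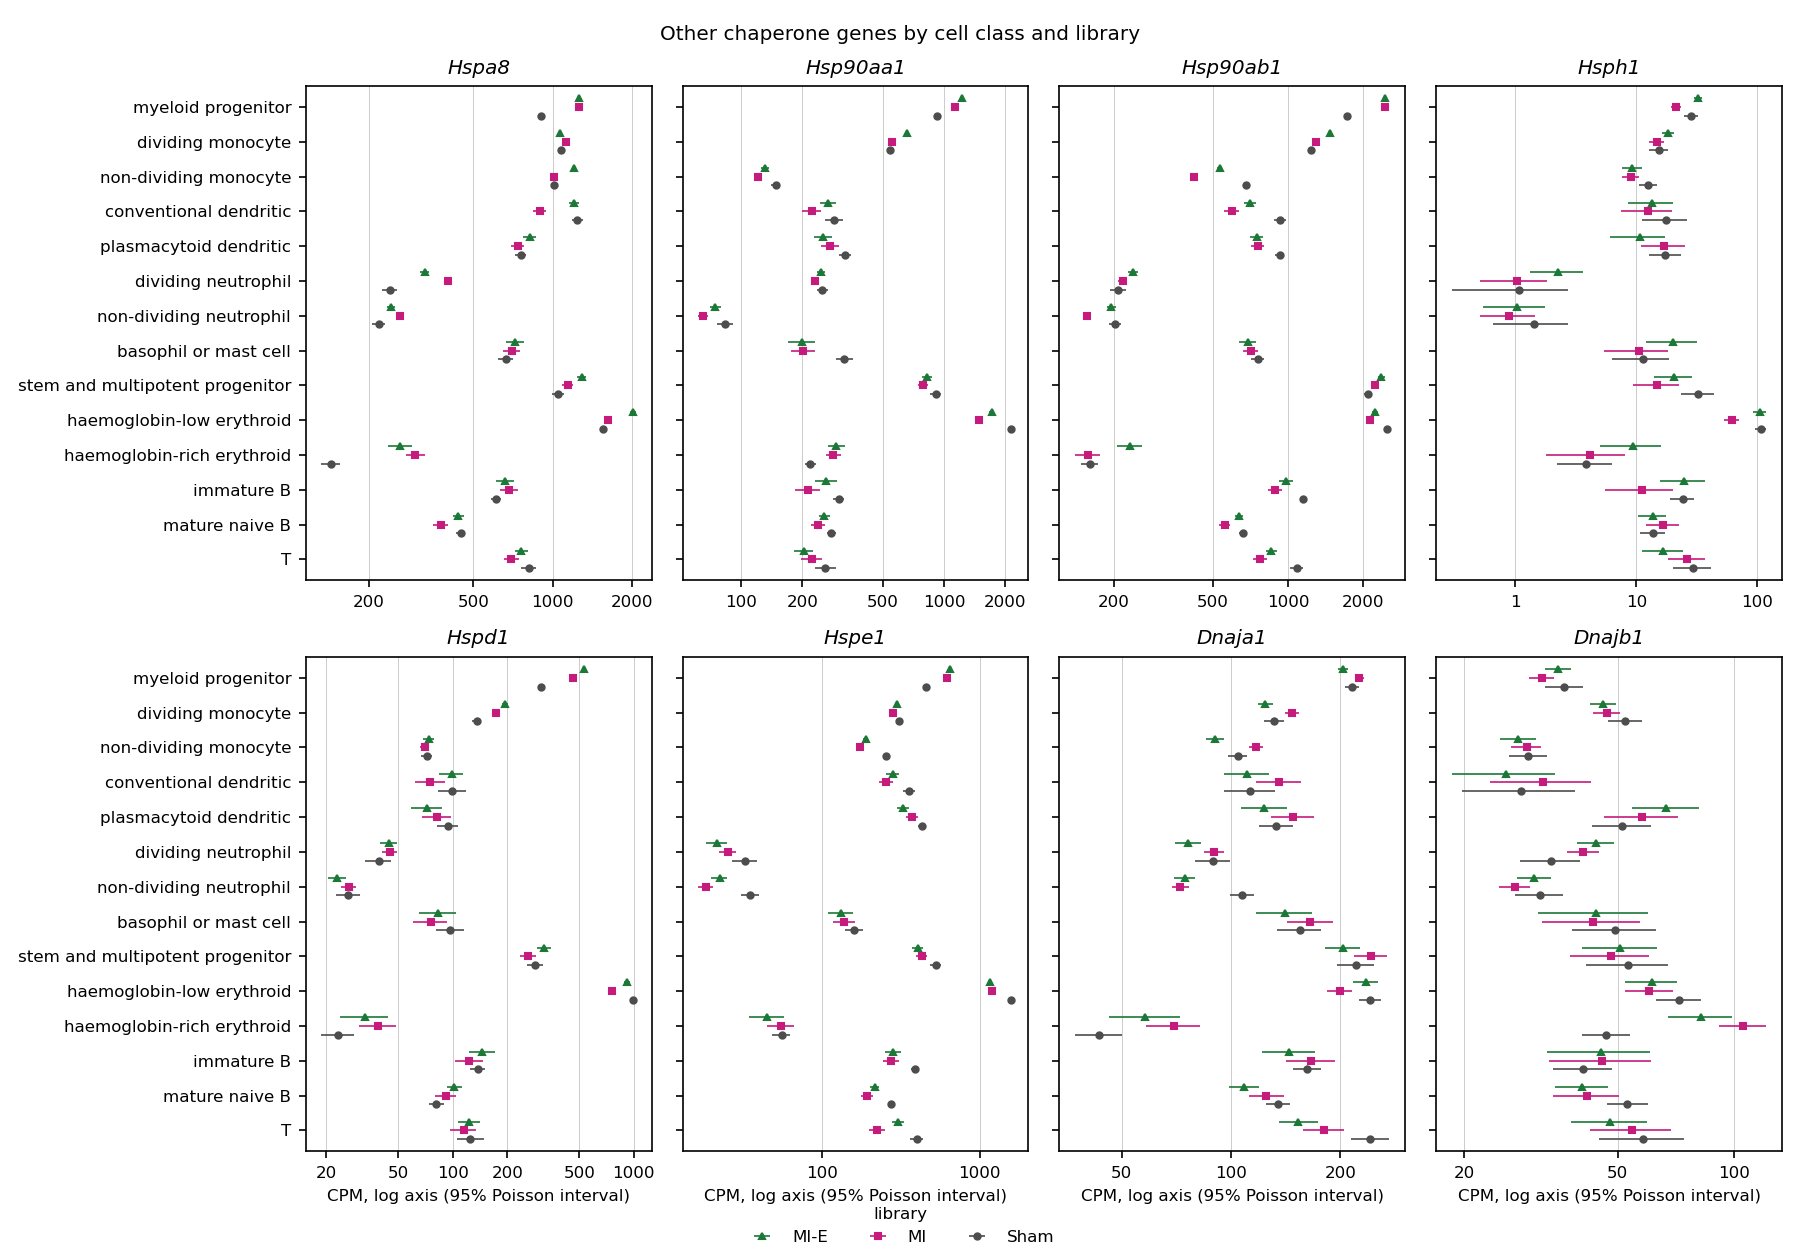
CPM of 8 chaperone genes in 14 cell classes on log axes that differ between panels, with MI-E as triangles, MI as squares and Sham as circles; bars are exact 95% Poisson intervals for counting error only. Sham lies left of both infarct libraries in myeloid progenitor-like cells for Hspa8, both HSP90 genes, Hspd1 and Hspe1, and right of them in most classes for Hspe1.

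The mitochondrial pair is transcribed from neighbouring genes on chromosome 1 (Hspe1 at chr1:55088132-55091307 on the forward strand, Hspd1 at chr1:55077835-55088243 on the reverse strand). Hspe1 was lower in MI than in Sham in 13 of 14 classes under CPM and under TMM scaling, with 11 intervals below 0. In T-like cells it was at 302 CPM in MI-E, 221.7 in MI and 398.8 in Sham (log2 ratio of MI to Sham -0.85, interval -1.07 to -0.63), and MI-E lay between (0.45 over MI). In non-dividing neutrophil-like cells, where the level was low, it was at 22.1 CPM in MI-E, 18.1 in MI and 34.7 in Sham (-0.94, interval -1.19 to -0.68), and -0.80 within cluster c2. The exception was myeloid progenitor-like cells, at 652.4 CPM in MI-E, 618.1 in MI and 458.1 in Sham (0.43, interval 0.38 to 0.48). Between MI-E and MI, Hspe1 was higher in MI-E in 8 classes and lower in 6, a split that TMM scaling turned to 5 and 9.

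Hspd1 had its clearest difference in the myeloid progenitor-like cells as well. It was at 533.8 CPM in MI-E, 462.5 in MI and 306.1 in Sham, so MI was above Sham (log2 ratio 0.60, interval 0.53 to 0.66) and MI-E above MI (0.21, interval 0.17 to 0.25). Dividing monocyte-like cells had the same order, at 195 CPM in MI-E, 173 in MI and 135.5 in Sham (0.35 for MI over Sham). Haemoglobin-low erythroid-like cells, with the highest levels, had MI lowest, at 915.9 CPM in MI-E, 759.2 in MI and 991.7 in Sham (-0.39). In all, Hspd1 was lower in MI than in Sham in 8 classes, 2 of them with intervals below 0, and higher in 6, 3 of them with intervals above 0. In haemoglobin-rich erythroid-like cells, at 32.6 CPM in MI-E, 38.6 in MI and 23.2 in Sham (0.73), the direction was not the same in its clusters: it was 0.77 within c14 and -0.71 within c19, whose interval holds 0.

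Hsph1, the HSP110 gene, was lowest in MI in the early erythroid, myeloid progenitor and stem cell classes. In haemoglobin-low erythroid-like cells it was at 104.3 CPM in MI-E, 61.2 in MI and 106.3 in Sham, so MI alone was low (log2 ratio of MI-E to MI 0.77, interval 0.50 to 1.04, and of MI to Sham -0.80, interval -1.06 to -0.54). Myeloid progenitor-like cells also had MI lowest, with 32.3 CPM in MI-E, 21.2 in MI and 28.4 in Sham (0.61 for MI-E over MI, interval 0.43 to 0.79, and -0.42 for MI over Sham). Its largest gap between MI and Sham was in stem and multipotent progenitor-like cells, at 20.4 CPM in MI-E, 14.9 in MI and 32.4 in Sham, with both infarct libraries below Sham (-1.12 for MI over Sham, interval -1.92 to -0.35, and -0.67 for MI-E over Sham, whose interval from -1.37 to 0.03 holds 0). In immature B-like cells it was at 24.6 CPM in MI-E, 11.1 in MI and 24.2 in Sham, with wide intervals on both sides of MI that did not hold 0 (0.06 to 2.32 for MI-E over MI). Over the 14 classes Hsph1 was lower in MI than in Sham in 12, 5 of them with intervals below 0, and it was at or under 2.27 CPM in both neutrophil-like classes in every library.

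Dnajb1 and Dnaja1 encode the J-domain partners of HSP70. Dnajb1 was at 35.1 CPM in MI-E, 31.8 in MI and 36.4 in Sham in myeloid progenitor-like cells, and at 27.7 CPM in MI-E, 29.0 in MI and 29.4 in Sham in non-dividing monocyte-like cells, where the intervals of the ratios to Sham held 0. In mature naive B-like cells Dnajb1 was at 40.4 CPM in MI-E, 41.6 in MI and 53.0 in Sham (-0.35 for MI over Sham, interval -0.69 to -0.02), but that ratio was 0.19 under the stricter cell filter. Its largest gap was in haemoglobin-rich erythroid-like cells, at 81.9 CPM in MI-E, 105.5 in MI and 46.7 in Sham (log2 ratio of MI to Sham 1.18, interval 0.89 to 1.47). Dnaja1 was lower in both infarct libraries in non-dividing neutrophil-like cells, at 74.5 CPM in MI-E, 72.4 in MI and 107.2 in Sham (-0.57 for MI over Sham, interval -0.70 to -0.43), and in T-like cells, at 153 CPM in MI-E, 181 in MI and 242 in Sham. Between MI-E and MI, Dnaja1 was lower in MI-E in 12 of 14 classes, 5 of them with intervals below 0, and in 13 of 14 under TMM scaling. Non-dividing monocyte-like cells had the largest of these gaps, at 90.4 CPM in MI-E and 117.2 in MI (-0.38, interval -0.48 to -0.27).

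**Figure D4:**
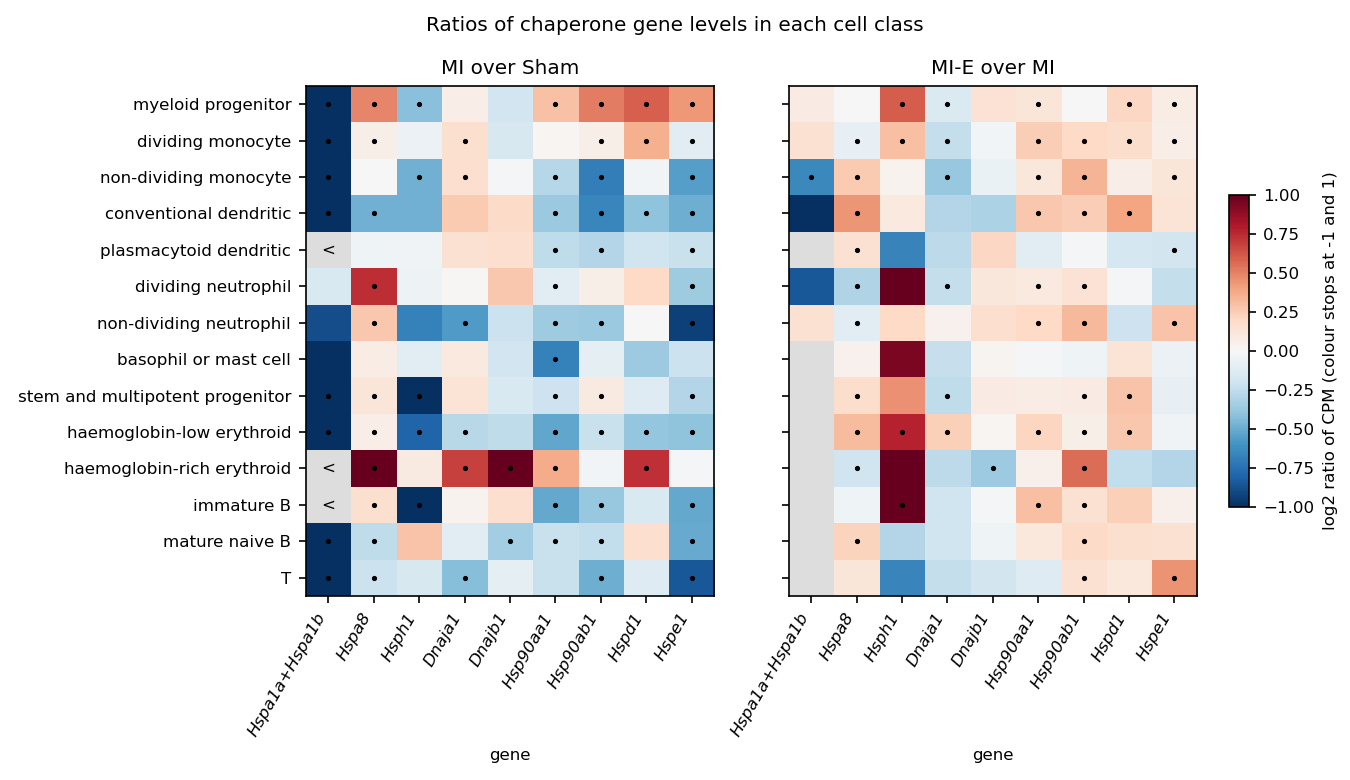
Log2 ratio of CPM for the Hspa1a and Hspa1b sum and 8 other chaperone genes in 14 cell classes, MI over Sham (left) and MI-E over MI (right), on a colour scale that stops at -1 and 1. A dot marks an interval for counting error that leaves out 0, a grey field a library without a UMI or a pair of libraries at the floor, and < a level in MI under that of Sham; the myeloid progenitor-like row is red for Hspa8, both HSP90 genes, Hspd1 and Hspe1 between MI and Sham.

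Outside the inducible pair, few members passed 1.5-fold. Of 102 combinations of a member and a class with at least 20 CPM, 7 were at least 1.5-fold lower and 6 at least 1.5-fold higher in MI than in Sham, against 5.2% lower and 9.16% higher over all genes. TMM scaling changed that split to 12 lower and 3 higher, against 6.8% and 6.43% of all combinations under the same scaling. Between MI-E and MI, 1 of 101 was lower and 2 higher, against 2.59% and 3.98% of all combinations. Between MI-E and Sham, 6 of 103 were lower and 3 higher, against 4.16% and 10.9% of all combinations, and 10 lower and 1 higher under TMM scaling, against 7.44% and 5.49%. As CPM the counts lie near or below the shares over all genes, while under TMM scaling the lower counts lie above and the higher counts below, so they depend on the scaling and are not a result about the chaperones.

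By class, the members past 1.5-fold were single genes in most cases. Stem and multipotent progenitor-like cells had Hsph1 lower in MI than in Sham (1 of 8, against 5.17% of all genes). T-like cells had 1 of 8 measured members lower in MI than in Sham, Hspe1, against 5.59% of all genes, and 2 of 8 lower in MI-E than in Sham, Hsph1 and Dnaja1, against 6.25%. Myeloid progenitor-like cells had Hspd1 higher in MI than in Sham (1 of 8, against 5.65% of genes), Hspd1 higher in MI-E than in Sham (1 of 8, against 7.93%) and Hsph1 higher in MI-E than in MI (1 of 8, against 0.649%). Haemoglobin-low erythroid-like cells had Hsph1 higher in MI-E than in MI (1 of 8, against 4.14%). Non-dividing monocyte-like cells had Hsp90ab1 lower in MI than in Sham (1 of 7, against 8.44%). Haemoglobin-rich erythroid-like cells had 4 of 7 higher in MI than in Sham, Hspa8, Hspd1, Dnajb1 and Dnaja1, but there 39.2% of all genes were past the same fold. The median log2 ratio of the measured members between MI and Sham was 0.36 in myeloid progenitor-like cells, where that of all genes was 0.08, and -0.40 in conventional dendritic-like cells, where that of all genes was 0.11.

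Each member had its own order of classes. Among members with more than 3 UMIs in their lowest Sham class, Hsph1 had the widest span, 99.7-fold, from 1.07 CPM in dividing neutrophil-like cells (4 UMIs) to 106.3 CPM in haemoglobin-low erythroid-like cells. Hspe1 followed with 49.3-fold between the same classes, from 32.0 to 1578 CPM. Dnajb1 had the narrowest, from 28.0 to 72.0 CPM in Sham, and all 13 pairs of neighbouring classes in its order overlapped there. Haemoglobin-low erythroid-like cells were highest in all 3 libraries for Hspa8, Hsp90aa1, Hspe1, Hspd1 and Hsph1. For Hsp90ab1 myeloid progenitor-like cells were highest in MI-E and MI, at 2449 and 2442 CPM, and haemoglobin-low erythroid-like cells in Sham, at 2487 CPM. Hspa1a and Hspa1b were highest in conventional dendritic-like cells in Sham, at 22.0 and 31.1 CPM, though all 13 neighbouring pairs in those orders overlapped.

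Across the 42 points of 14 classes and 3 libraries, the genes whose log2(CPM + 1) profile was most like the mean of the members were Nop10 (Pearson r 0.956), Npm1 (0.949), Mrpl12 (0.943), Nhp2 (0.940) and Polr2f (0.938), out of 2928 genes with a mean of at least 50 CPM. Within the set, Hspe1 (0.936) and Hsp90ab1 (0.928) followed that mean most closely and Hspa1b (0.479), Hspa1a (0.463) and Dnajb1 (0.200) least. Each member is itself part of that mean, which raises these values, so they cannot be set against those of genes outside the set. The genes most like Hspa1a were Serf2 (0.646), Ost4 (0.621) and Ndufa13 (0.585), far below Hspa1b itself (0.921), while Dnajb1 was at -0.226. The points share libraries and depth, so these are descriptions.

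Other chaperone systems were read from lists of genes in the same classes, with the genes of highest level named. In myeloid progenitor-like cells, the TRiC/CCT chaperonin, which folds actin and tubulin, was higher in MI than in Sham for 8 of 8 subunits, with a median log2 ratio of 0.48. Its subunit genes Cct6a and Tcp1 were at 301 and 278.5 CPM in MI, against 212 and 193.2 CPM in Sham. Mitochondrial chaperones and proteases had a median of 0.42 over 7 of 10 genes measured, with Hspa9, the mitochondrial HSP70, at 231.7 CPM in MI and 124 CPM in Sham, and Grpel1, its exchange factor, at 155 and 124.5 CPM. HSP70 and HSP90 cochaperones had a median of 0.20 (16 of 19 measured), with Ptges3, the p23 cochaperone, at 269 CPM in MI and 206 CPM in Sham, and Cacybp at 224 and 188 CPM. Prefoldin had a median of 0.22 (6 of 6), with Pfdn5 at 364 CPM in MI and 387.5 CPM in Sham and Pfdn6 at 179 and 137.5 CPM. The other J-domain genes had 0.13 (17 of 22; Dnajc19 at 192.4 and 142 CPM, Dnajc8 at 167 and 145 CPM) and the other HSP70 and HSP110 genes 0.06 (4 of 8; Hspa4 at 191 and 151 CPM, Hspa14 at 82.5 and 72.6 CPM).

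Some lists did not follow. Chaperones of the endoplasmic reticulum had a median of -0.06 in myeloid progenitor-like cells (15 of 16 measured), with Calr at 940.0 CPM in MI and 981 CPM in Sham and Hsp90b1, the HSP90 of that compartment, at 668 and 893 CPM. The heat shock factor list had -0.04 (2 of 4; Hsbp1 at 128 CPM in MI and 131 CPM in Sham, Hsf1 at 20.2 and 20.8 CPM). Hsbp1 encodes a protein that binds heat shock factor 1 and is not itself a factor. No small heat shock protein gene reached 20 CPM there. G2 and M phase genes had 0.02 (20 of 20; Hmgb2 at 2748 and 3019 CPM, Top2a at 433 and 417 CPM). Immediate early genes had -1.09 (11 of 18; Ier2 at 87.8 CPM in MI and 126 CPM in Sham, Fos at 37.5 and 101 CPM) and cold-inducible genes 1.32 (Rbm3 at 1489 and 465 CPM, Cirbp at 95.2 and 49.1 CPM). The 4 haemoglobin genes had -0.70 (Hbb-bs at 116 CPM in MI and 189 CPM in Sham). S100a8 and S100a9, abundant neutrophil genes, had -0.75, and whether their UMIs were free RNA or RNA of these cells was not tested.

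Non-dividing monocyte-like cells had another layout between MI and Sham. The chaperones of the endoplasmic reticulum were higher there for 15 of 15 measured genes, with a median of 0.63, and 9 of them were at least 1.5-fold higher, against 7.42% of all genes. Hspa5, their HSP70, was at 486.3 CPM in MI and 252.7 CPM in Sham, and Hsp90b1 at 495 and 409 CPM. In the same cells the median was -0.06 for TRiC/CCT, 0.26 for mitochondrial chaperones and proteases (5 of 10 measured) and 0.10 for cochaperones (14 of 19). It was 0.04 for the other J-domain genes, 0.05 for the other HSP70 and HSP110 genes, -0.12 for prefoldin and -0.08 for the heat shock factor list. Hspb11, the one gene of the small heat shock protein list that was measured, was at 19.3 CPM in MI and 44.8 CPM in Sham. That is a value of 1 gene and not of small heat shock proteins in general. Hspb1 was at no more than 1.01 CPM in any compared class and library. Immediate early genes had -0.59, with 9 of 17 at least 1.5-fold lower, against 8.44% of all genes, and cold-inducible genes 1.22. Haemoglobin genes had -1.59, G2 and M phase genes -0.01 and S100a8 and S100a9 2.89. The haemoglobin genes and S100a8 and S100a9 thus differed between the libraries in this class. Whether their UMIs were free RNA or RNA of these cells, and their part in these medians, was not tested.

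The same endoplasmic reticulum list was at least 1.5-fold higher in MI than in Sham for 7 of 12 genes in non-dividing neutrophil-like cells, against 5.27% of all genes, and at least 1.5-fold lower for 7 of 13 in T-like cells, against 5.59% of all genes, with Hspa5 at 139.5 CPM in MI and 226.6 CPM in Sham. In mature naive B-like cells 1 of 13, Calr, was at least 1.5-fold lower, at 119 CPM in MI and 204 CPM in Sham, against 2.18% of all genes. Hspe1 and Hsp90ab1, described above, were lower in MI than in Sham in non-dividing monocyte-like cells (log2 ratios -0.55 and -0.69) and in T-like cells (-0.85 and -0.49). In dividing monocyte-like cells the log2 ratio was -0.11 for Hspe1 and 0.06 for Hsp90ab1.

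Pre-B-like cells could be described by cluster but not compared as classes, since few MI and MI-E cells fell in the Sham clusters. In the small pre-B-like cluster b2, which held 3248 Sham cells, the inducible pair was at 6.04 CPM (26 UMIs) in Sham, with no UMI in 133 MI-E cells or 92 MI cells. Cluster b4 is left unnamed, since its 10 leading genes held no small pre-B marker and 1 pro-B marker. It had 728 MI-E cells and 594 MI cells, in which the pair was at 4.38 CPM in MI-E (4 UMIs) and 2.71 CPM in MI (2 UMIs). The large pre-B-like cluster b5 had 89 MI-E cells and 1155 Sham cells, in which Hsp90aa1 was at 522 CPM in MI-E and 1006 CPM in Sham, Hspe1 at 287 and 577 CPM, and Hspd1 at 189 and 321 CPM. Non-classical monocyte-like cells, with 186 cells in Sham, had the pair at 12.4 CPM in MI-E, 7.60 in MI and 57.1 in Sham.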

How the data were processed

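For each of the 3 libraries the authors deposited a table of UMI counts, genes by cell barcodes, made with Single Cell 3′ v3.1 chemistry per the labels' protocols, and Cell Ranger 5.0.1 and build mm10 are named per the submitters' processing notes. The annotation release and how reads shared by near-identical genes were counted are not given in the sources used here. Deposited totals were 109451500 UMIs in MI-E, 127330601 in MI and 99657072 in Sham, and gene positions came from GENCODE M21 by gene identifier.

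Groups came from the treatment labels. Cells were kept from 300 genes and 500 UMIs upward if mitochondrial UMIs made up no more than 10%, and likely doublets, scored against 2 simulated doublets per cell, were removed: 2844 in MI-E (12.6%), 2996 in MI (12.8%) and 3780 in Sham (15.1%). Cells were clustered together with scanpy 1.11.5 and leidenalg 0.10.2 (2000 variable genes, 40 components, 20 neighbours, resolution 1, seed 1, no correction between libraries), B lineage cells a second time, and clusters were named from marker lists. Splits of monocytes and neutrophils at 200 CPM of Top2a, and of erythroid cells at 20000 CPM of Hbb-bs, were chosen after seeing the clusters, as were the values within clusters, the totals without haemoglobin, and the shares over genes under 20 CPM and under TMM scaling. Members, lists and classes were chosen with earlier results of these data known.

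UMIs were summed per class and library. Since each group is a single library, no difference was tested and no replicate error is given. Levels carry exact Poisson intervals, shares Clopper-Pearson intervals and ratios conditional binomial intervals, all at 95%, computed with scipy 1.17.1, numpy 2.4.6 and pandas 2.3.3 in Python 3.11.15. Intervals were tested on simulated Poisson counts, the model they assume. That checks the computation, and not whether the intervals hold for UMIs that are not independent within a cell. A gene counted as past the fold at 1.5-fold, among genes with a mean of at least 20 CPM in the pair of libraries, and a count of 0 was given the floor of 3 counts. Depth sets the precision: compared classes held between 206 and 5583 cells. Beyond the members, the 2 genes of highest mean CPM of each list, the 5 genes most like the members' mean profile and the 3 most like Hspa1a were named, while Calr in B cells, Hspa5 in T-like cells and the classes singled out were picked after their values were seen. Alternatives were a stricter cell filter, doublets kept, resolution 0.5, thinning to 1000 UMIs, equal weight of cells, median-of-ratios and TMM scaling, leaving out the cell with the most UMIs, other folds and other minimum levels.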

Additional observations from a re-analysis of the deposited data

How the results depend on the processing

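Of the ratios computed for single genes or the inducible pair, 368 of 390 moved by less than their counting interval under a stricter cell filter, 380 of 411 with doublets kept, 300 of 309 at Leiden resolution 0.5, 377 of 403 with equal weight of cells, 387 of 387 without the cell with the most UMIs, 393 of 403 with haemoglobin left out of the totals, 329 of 403 under median-of-ratios scaling, 315 of 403 under TMM scaling and 240 of 367 after thinning to 1000 UMIs. Among ratios of at least 1.5-fold whose interval left out 0, 1 direction reversed: Hspd1 between MI and Sham in haemoglobin-rich erythroid-like cells was -0.71 within cluster c19, against 0.73 in the class. Smaller ratios whose interval left out 0 changed sign 27 times, in 20 ratios of at most 0.42 on the log2 scale: 8 times under TMM scaling, 8 after thinning, 5 under median-of-ratios scaling, 2 with doublets kept, 2 under the stricter filter, 1 at resolution 0.5 and 1 with haemoglobin left out.

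The classes in which inducible HSP70 was at least 1.5-fold lower in MI than in Sham went from 12 to 6 of 9 after thinning, and those in MI-E against Sham from 13 to 6 of 9. Thinning both leaves fewer UMIs and evens out depth, and the part of either was not tested. Between MI-E and MI, 3 became 1 of 4 at resolution 0.5, where 3 of the 14 classes do not exist, and 1 of 3 after thinning. Combinations of a member and a class past the fold numbered 39 with a fold only 25% above equal levels and 3 at 2-fold between MI and Sham (13 at 1.5-fold), 39 and 0 between MI-E and Sham (9 at 1.5-fold, 17 after thinning), and 11 and 0 between MI-E and MI (3 at 1.5-fold, 8 after thinning, 5 under the stricter filter). The classes with a median of the members below 0 between MI-E and MI went from 5 to 8 under TMM and 8 under median-of-ratios scaling, 3 of 11 at resolution 0.5, 3 after thinning, 3 with doublets kept, 2 with equal weight of cells and 3 without the cell with the most UMIs. The cause was not tested.

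No paired analysis was possible because each group is 1 library. Levels of a few CPM rest on single UMIs, and a class with few cells in a library cannot show differences smaller than its interval.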
